A study of Mus musculus with 47 samples.

Results

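The transcripts of 10 neurotrophic growth factors and growth factor receptors were followed in the cortex of mice that had lost most of their microglia. The genes were the neurotrophins *Bdnf* and *Ntf3*, the neurotrophin receptors *Ntrk2* and *Ntrk3*, the factor *Igf1* and its receptor *Igf1r*, and *Vegfa*, *Pdgfa*, *Pdgfb* and *Fgf2*. They were matched by symbol to the Ensembl identifiers of the deposited tables with the GENCODE M21 annotation. All 10 were found among the 54281 genes of the TPM table (a transcript level corrected for transcript length and library size) and among the 54532 genes of the count table. All 10 were also among the 14580 genes that averaged 1 TPM or more, which were tested. The 47 libraries were made from cortex of 1 hemisphere of male C57BL/6J mice aged about 3 months, 1 library per mouse. Control mice ate control chow for 10 days (23 libraries), and PLX5622 mice ate chow with 1200 ppm PLX5622, an inhibitor of the receptor CSF1R that microglia need to survive, for 10 days (24 libraries). In each diet, 4 mice were harvested at each of 6 Zeitgeber times (ZT, hours after lights-on), ZT2, ZT6, ZT10, ZT14, ZT18 and ZT22, except that 3 control libraries at ZT14 were analysed. The mice were housed 4 to a cage, and the cage of each mouse is not given in the sources used here.

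Growth factors of these families are secreted proteins that bind receptor tyrosine kinases on neighbouring cells. BDNF and NT-3, the products of *Bdnf* and *Ntf3*, act through TrkB and TrkC, the products of *Ntrk2* and *Ntrk3*, on neuronal survival and on synapses. IGF-1 acts through IGF1R on growth and myelination, VEGF-A and PDGF-B act on blood vessels and the mural cells around them, PDGF-A on oligodendrocyte precursors, and FGF2 on neural progenitors and glia. Microglia are known as a source of several of these factors, including IGF-1, and neurons, astrocytes and vascular cells make others.

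The loss of microglia was visible in every PLX5622 library. All 16 microglial marker genes were lower in PLX5622 mice by limma (adjusted p under 0.05 over all genes tested), with *Csf1r*, the gene of the inhibited receptor, at a log2 fold change of -3.54 (standard error 0.191) and *Cx3cr1*, a chemokine receptor of microglia, at -3.11 (standard error 0.134). Their summed level ranged from 634 to 946 TPM in control mice and from 24.6 to 144 TPM in PLX5622 mice. From bulk RNA alone, fewer microglia and less RNA per microglial cell cannot be told apart. The paper also counted stained microglia in the other hemisphere, and reports that most of them were lost with PLX5622. The markers of border macrophages, which also need CSF1R, summed to between 7.82 and 20.2 TPM in control mice and to between 0.385 and 2.94 TPM in PLX5622 mice, and 5 of these 7 genes were below a mean of 1 TPM.

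The 10 transcripts covered a wide range of levels. *Ntrk2* was the most abundant, with a mean of 168 TPM (SD 23.3, n = 47), and it exceeded the next gene in 47 of 47 libraries. *Vegfa*, with 31.4 TPM (SD 5.09), and *Pdgfa*, with 31.4 TPM (SD 2.80), could not be ordered, since *Vegfa* was the higher one in 25 of 47 libraries. *Ntrk3* followed at 17.99 TPM (SD 3.49), *Pdgfb* at 12.4 TPM (SD 2.16), *Igf1r* at 7.35 TPM (SD 1.49) and *Bdnf* at 5.80 TPM (SD 1.30). The lowest levels were those of *Fgf2* at 2.76 TPM (SD 0.635), *Igf1* at 1.57 TPM (SD 0.547) and *Ntf3* at 1.33 TPM (SD 0.604). *Igf1* exceeded *Ntf3* in 31 of 47 libraries, so this last step was within the spread between mice. Every other step of the order, apart from *Vegfa* and *Pdgfa*, held in at least 42 of 47 libraries. *Ntf3* rested on few reads, 6 to 54 per library, against 62 to 214 for *Igf1* and 12302 to 24197 for *Ntrk2*.

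**Figure D1:**
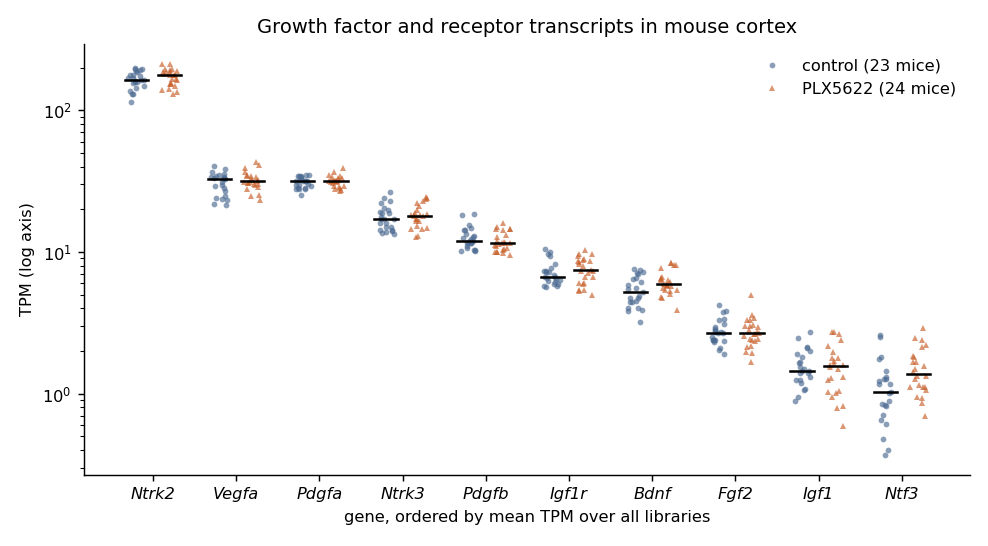
TPM of each gene in every library on a log axis, with control mice as circles, PLX5622 mice as triangles and the median of each diet as a black line. *Ntrk2* lies above 100 TPM in all libraries, *Igf1* and *Ntf3* lie around 1 TPM, and the diets overlap for every gene.

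All 10 genes are annotated on GRCm38 as protein coding. *Bdnf* spans chr2:109674700-109727007 on the plus strand, with 11 annotated transcripts, *Ntf3* chr6:126101412-126166910 on the minus strand, *Ntrk2* chr13:58806569-59133970 on the plus strand and *Ntrk3* chr7:78175959-78738012 on the minus strand. *Igf1* spans chr10:87858265-87937042 and *Igf1r* chr7:67952827-68233668, both on the plus strand. *Vegfa* lies at chr17:46016993-46032369, *Pdgfa* at chr5:138976014-138997370 and *Pdgfb* at chr15:79995874-80014977, all on the minus strand, and *Fgf2* at chr3:37348346-37410108 on the plus strand. Exons of 3 of them overlap exons of a gene on the opposite strand. *Nudt6*, a nudix hydrolase gene, overlaps *Fgf2* and had a mean of 3.98 TPM in control mice and 3.94 TPM in PLX5622 mice. The non-coding gene *6330403L08Rik* overlaps *Pdgfa*, with 9.23 and 8.77 TPM, and *Gm45346* overlaps *Bdnf*, with 0.161 and 0.157 TPM. The sources used here do not say whether reads were assigned by strand, so reads in these overlaps may belong to either gene. *Gm9885*, a further opposite-strand gene within *Ntrk3* at 1.59 and 1.56 TPM, and *Gm41361* within *Pdgfb* at 1.07 and 1.30 TPM share no exon bases with them.

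Promoter windows from 250 bases before to 50 bases after the RefSeq transcript start were matched for 8 of the 10 genes, with 7 starts for *Bdnf*, 2 each for *Ntf3*, *Pdgfa* and *Vegfa* and 1 for each of the others. They were searched for the E-box CACGTG, the motif through which the clock factors CLOCK and BMAL1 bind DNA, and for the CRE TGACGTCA, the motif of the activity-dependent factor CREB. Both motifs read the same on both strands. Of 32851 RefSeq promoter windows of this length, 7.15% hold the E-box and 1.79% the CRE. Among the 17 windows of the 8 genes, 1 holds this exact E-box, at the upstream start of *Ntf3*, and 0 hold this exact CRE. That window is shown with the window of *Igf1r*, the gene with the clearest difference between Zeitgeber times below, with motif bases in capitals and both sequences 5′ to 3′ on the strand of the gene, from RefSeq on GRCm38.p6. The *Ntf3* window is chr6:126166695-126166994 on the minus strand, and the *Igf1r* window is chr7:67952007-67952306 on the plus strand and has no capitals.
Ntf3: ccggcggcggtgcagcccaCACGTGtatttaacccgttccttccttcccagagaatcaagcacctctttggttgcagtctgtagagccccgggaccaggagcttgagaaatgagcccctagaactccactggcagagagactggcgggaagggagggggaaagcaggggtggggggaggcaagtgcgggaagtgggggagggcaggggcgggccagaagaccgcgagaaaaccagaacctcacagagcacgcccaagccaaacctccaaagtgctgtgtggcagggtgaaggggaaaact
Igf1r: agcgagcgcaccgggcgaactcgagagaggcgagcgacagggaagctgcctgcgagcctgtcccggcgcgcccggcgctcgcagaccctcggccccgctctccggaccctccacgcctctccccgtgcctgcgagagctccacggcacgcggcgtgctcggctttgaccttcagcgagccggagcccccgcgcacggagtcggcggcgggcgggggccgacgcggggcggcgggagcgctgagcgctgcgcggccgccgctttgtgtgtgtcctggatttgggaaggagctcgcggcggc
These matches describe the letters of 300-base windows only. Sites that differ from either motif by a base were not counted, so a window without a match may still hold a variant site. The 300 bases of *Igf1r* had a GC content of 76.0% and those of *Ntf3* 61.0%.

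The first question was whether growth factor transcripts change when microglia are lost. None of the 10 passed the threshold in the comparison of PLX5622 with control mice over all Zeitgeber times (limma on log2(TPM + 1) with a 24-h time term, adjusted p under 0.05), against 503 of all 14580 genes tested, or 3.45%. At an unadjusted p under 0.05 there were 2, *Ntf3* and *Bdnf*, where 16.2% of all genes were under this value. On the counts, edgeR and DESeq2 each called 1 of the 10, *Pdgfb*, and edgeR called 7.13% of the 16960 genes it tested. The share of all genes called by DESeq2 is not given here, so its call has no background beside it. The median log2 fold change of the 10 genes was 0.05, beside 0.03 over all genes, and 7 of the 10 estimates were above 0.

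*Igf1* was not called, unlike the microglial markers. Its lowest, median and highest values were 0.884, 1.46 and 2.701 TPM in the 23 control mice and 0.594, 1.56 and 2.74 TPM in the 24 PLX5622 mice. The ranges overlapped almost completely, with 3 PLX5622 mice below and 2 above every control mouse. The log2 fold change on log2(TPM + 1) was -0.02 (standard error 0.0878, 95% CI -0.19 to 0.16, adjusted p = 0.944), and with a pseudocount of 0.1, which compresses low values less, it was -0.04 (standard error 0.139, adjusted p = 0.908). With edgeR on the counts the estimate was 0.10 (adjusted p = 0.585), so its sign depended on the table used. For comparison, the microglial marker with the smallest change, *Aif1*, had a log2 fold change of -2.26.

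**Figure D2:**
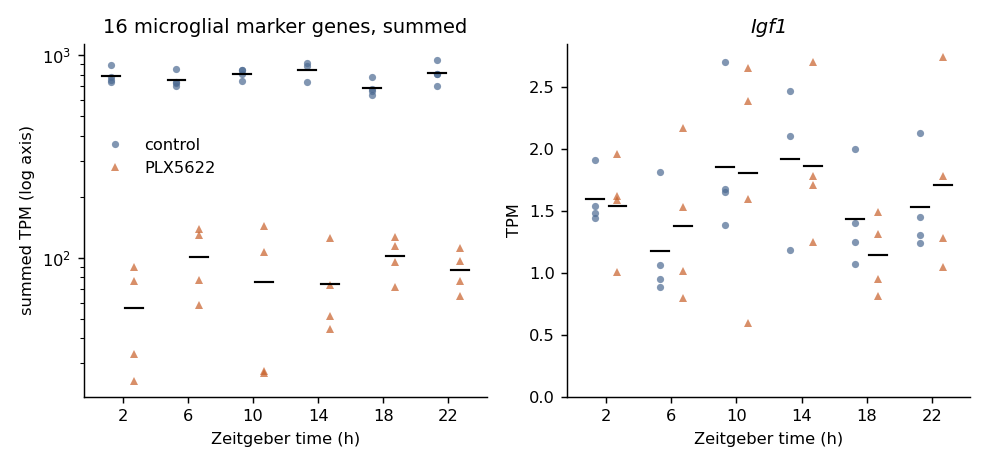
Summed TPM of the 16 microglial marker genes on a log axis (left) and TPM of *Igf1* (right) in every library by Zeitgeber time, with control mice as circles, PLX5622 mice as triangles and group means as black lines. The marker sums of the diets do not overlap, at 634 TPM or more in control mice and 144 TPM or less in PLX5622 mice, while the *Igf1* values of the diets overlap at all 6 Zeitgeber times.

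*Igf1r*, the receptor of IGF-1, had a lowest, median and highest value of 5.64, 6.65 and 10.5 TPM in control mice and 4.96, 7.42 and 10.3 TPM in PLX5622 mice. The log2 fold change was 0.05 (95% CI -0.09 to 0.19, adjusted p = 0.779). In PLX5622 mice 4 values were below every control value, 3 of them at ZT6 and 1 at ZT10.

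The neurotrophin *Ntf3* had the largest estimate of the 10 genes. Its values ran from 0.367 to 2.59 TPM with a median of 1.02 TPM in control mice, and from 0.700 to 2.89 TPM with a median of 1.38 TPM in PLX5622 mice. The ranges overlapped widely, and 1 PLX5622 mouse was above every control mouse. The mean was higher in PLX5622 mice at 6 of 6 Zeitgeber times, with a log2 fold change of 0.25 on log2(TPM + 1) (standard error 0.0995, 95% CI 0.05 to 0.45), an unadjusted p of 0.0154 and an adjusted p of 0.180 over all genes (limma). edgeR gave 0.45 (adjusted p = 0.0926) and DESeq2 0.45 (adjusted p = 0.0925) on the counts, and over all the alternatives the adjusted p of *Ntf3* lay between 0.0754 and 0.299. When each library was left out of the edgeR test in turn, *Ntf3* was called in 2 of 47 repeats.

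*Bdnf* came next. Its lowest, median and highest values were 3.22, 5.26 and 7.58 TPM in control mice and 3.87, 5.90 and 8.41 TPM in PLX5622 mice. The mean was higher in PLX5622 mice at 4 of 6 Zeitgeber times, and 5 of the 24 PLX5622 mice were above every control mouse. The log2 fold change was 0.17 (standard error 0.0781, 95% CI 0.02 to 0.33, unadjusted p = 0.0301, adjusted p = 0.245 with limma), and edgeR gave the same size of 0.17 (adjusted p = 0.187). With 3 principal components of the residuals as covariates the adjusted p was 0.00276 with limma, in a fit that called 2428 genes instead of 503. These components were uncorrelated with diet by construction, so the estimate of 0.17 could not move. They also take up spread left after the fit, so the lower p is no separate support. Exons of *Gm45346* on the other strand overlap *Bdnf*, at a level too low to be tested.

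The neurotrophin receptors were not called. *Ntrk2*, the TrkB gene, had 114, 165 and 198 TPM as lowest, median and highest values in control mice and 130, 177 and 214 TPM in PLX5622 mice, with a log2 fold change of 0.06 (95% CI -0.06 to 0.18, adjusted p = 0.650). *Ntrk3*, the TrkC gene, had 13.4, 17.1 and 26.5 TPM in control mice and 12.8, 18.1 and 24.6 TPM in PLX5622 mice, with a log2 fold change of 0.05 (95% CI -0.11 to 0.20, adjusted p = 0.810). A test that misses the threshold does not show equal levels, and both intervals reach increases as large as the estimate for *Bdnf*.

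*Pdgfb*, the PDGF chain that endothelial cells use to recruit mural cells, was the gene with the lowest estimate. Its lowest, median and highest values were 10.1, 11.9 and 18.5 TPM in control mice and 9.54, 11.6 and 16.1 TPM in PLX5622 mice, and 5 PLX5622 mice were below every control mouse. The mean was lower in PLX5622 mice at 5 of 6 Zeitgeber times. The log2 fold change on log2(TPM + 1) was -0.08 (standard error 0.0631, 95% CI -0.20 to 0.05, adjusted p = 0.569 with limma), while the counts gave -0.15 with edgeR (adjusted p = 0.0412) and -0.15 with DESeq2 (standard error 0.0481, adjusted p = 0.0354). The edgeR call was made in 29 of 47 repeats that left out 1 library, with adjusted p-values from 0.0166 to 0.0748, the highest without control ZT14 mouse 1. The summed level of 8 mural cell markers was 101 to 182 TPM in control mice (median 135) and 110 to 178 TPM in PLX5622 mice (median 140), and 0 of the 8 were called. Of 10 endothelial markers 1 was higher (*Emcn*, chosen for naming after its value was seen) and 0 were lower.

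*Vegfa*, *Pdgfa* and *Fgf2* were not called, and their intervals included 0. *Vegfa*, the main angiogenic factor, had 21.4, 32.8 and 40.2 TPM as lowest, median and highest values in control mice and 23.2, 31.6 and 43.0 TPM in PLX5622 mice, with a log2 fold change of 0.08 (95% CI -0.05 to 0.21, adjusted p = 0.587). *Pdgfa* had the narrowest interval, with values from 25.1 up to 35.0 TPM in control mice, values from 26.9 up to 38.9 TPM in PLX5622 mice and a log2 fold change of 0.02 (95% CI -0.06 to 0.10, adjusted p = 0.857). *Fgf2* had 1.90 to 4.21 TPM and 1.67 to 4.99 TPM, with a log2 fold change of -0.01 (95% CI -0.15 to 0.12, adjusted p = 0.945). The signs of these 3 estimates were opposite in the counts with edgeR, at -0.01, -0.00459 and 0.01.

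**Figure D3:**
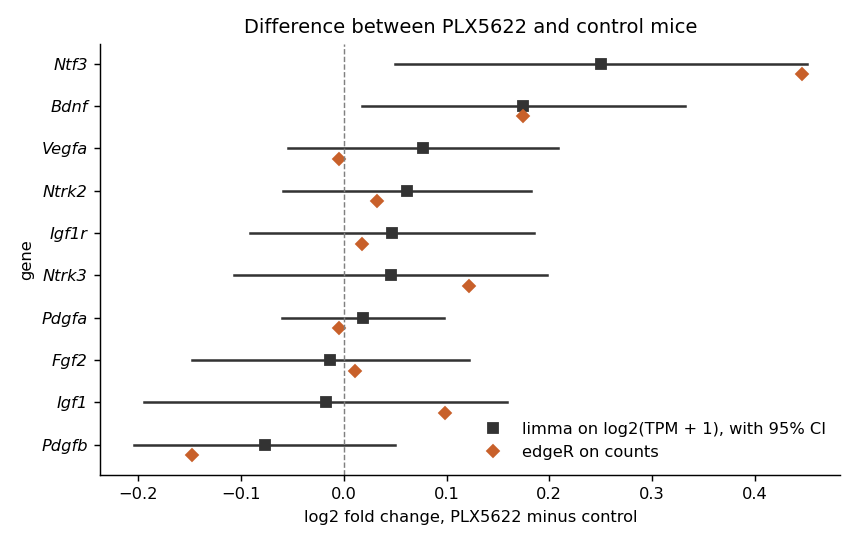
Log2 fold change of PLX5622 minus control for each gene, with the limma estimate on log2(TPM + 1) and its 95% confidence interval as squares and lines and the edgeR estimate on the counts as diamonds. The unadjusted intervals of *Ntf3* and *Bdnf* lie above 0 and the others include 0, and the edgeR estimate of *Pdgfb* is the lowest at -0.15.

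Few markers of other cell types were called for the diet. No neuron marker of 11 and no oligodendrocyte precursor marker of 7 was called. Of 10 astrocyte markers 1 was higher (*Gfap*, log2 fold change 0.56), of 10 oligodendrocyte markers 1 (*Cldn11*, 0.24), and of 7 choroid plexus markers tested 2 (*Ttr*, 0.80, and *Kl*, 0.40), all named after their values were seen. The summed level of the choroid plexus markers ran from 70.0 to 1194 TPM in control mice (median 501) and from 149 to 1276 TPM in PLX5622 mice (median 810), and their part in the estimates of *Ntf3* and *Bdnf* was not tested.

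Relatives and partners of the 10 genes were counted in lists. Of 15 other neurotrophin genes tested (of 17 listed), 0 were called for the diet, and their median log2 fold change was 0.05. Of 13 other IGF genes (of 18), 1 rose, *Igfbp3*, which encodes a binding protein that carries IGF-1. It had a mean of 5.28 TPM (SD 0.832, n = 23) in control and 6.32 TPM (SD 0.899, n = 24) in PLX5622 mice. Its log2 fold change was 0.22 (standard error 0.0508) with an adjusted p of 0.00519, and it was called in 47 of 47 repeats without 1 library. Of 8 other VEGF genes (of 10) and 5 other PDGF genes (of 5), 0 were called, with medians of 0.06 and 0.14. Of 18 other FGF genes (of 26), 1 rose and 1 fell. *Fgfr2*, an FGF receptor of glia, had 26.3 TPM (SD 2.64) in control and 28.9 TPM (SD 2.49) in PLX5622 mice, and its log2 fold change was 0.13 with an adjusted p of 0.0437. *Etv4*, a transcription factor induced by FGF signalling, had 13.4 TPM (SD 2.85) and 10.8 TPM (SD 2.50), a log2 fold change of -0.28 and an adjusted p of 0.0376. Both were near the threshold, and they were called in 18 and 26 of the 47 repeats without 1 library, with adjusted p-values of up to 0.0722 (without control ZT6 mouse 1) and 0.0680 (without control ZT18 mouse 1). On the counts, edgeR called *Fgfr2* (adjusted p = 0.0351) and not *Etv4* (adjusted p = 0.145). *Fgfr2* was called in 11 of 13 alternatives, with an adjusted p of up to 0.158 (upper-quartile scaling), and *Etv4* in 9 of 13, with an adjusted p of up to 0.168 (library total as a covariate). Of 14 genes of the GDNF and CNTF families (of 19), 1 fell, the GDNF relative *Nrtn*, from 8.35 TPM (SD 1.47) to 6.80 TPM (SD 1.70), a log2 difference of -0.28 (standard error 0.0703) and an adjusted p of 0.0115. It was called in 47 of 47 repeats, but not with the library total as a covariate (adjusted p = 0.0625).

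The second question was whether the transcripts change with Zeitgeber time. A 24-h cosine fitted to both diets together called 0 of the 10 genes with limma, against 5.26% of all genes tested, and 1 gene, *Igf1r*, had an unadjusted p under 0.05, where 19.8% of all genes were under this value. On the counts, edgeR and DESeq2 each called 1 of the 10, again *Igf1r*, where edgeR called 12.2% of all genes and the share for DESeq2 is not given here. When the 6 Zeitgeber times entered as separate levels, an analysis added after the data were seen, limma called 2 of the 10 genes, *Igf1r* and *Pdgfb*, against 11.0% of all genes. edgeR called the same 2 genes, against 14.5% of the genes it tested. A count of 2 of 10 is close to these shares.

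*Igf1r* was highest at ZT14, early in the dark phase, in both diets. The 3 control mice at ZT14 had 9.93, 7.30 and 10.5 TPM, and the 4 control mice at ZT6 had 5.64, 6.48, 6.62 and 6.90 TPM. The 4 PLX5622 mice had 8.45, 8.22, 10.3 and 9.72 TPM at ZT14 and 5.33, 5.40, 5.94 and 4.96 TPM at ZT6. In each diet every mouse at ZT14 was above every mouse at ZT6. These were the times of the highest and lowest mean, so their separation is no test of its own. The share of all genes with such a separation was not counted. Group means at the other times were 6.57 to 7.43 TPM in control mice and 7.01 to 8.56 TPM in PLX5622 mice, and the highest mean exceeded the lowest by 1.44 times in control mice and 1.70 times in PLX5622 mice. With the Zeitgeber times as levels, the unadjusted p was 1.00e-04 and the adjusted p 0.00377 (limma), and *Igf1r* was called in 47 of 47 repeats without 1 library. The fitted cosine had an amplitude of 0.14 on the log2 scale (standard error 0.0484, n = 47) and a peak at ZT 17.4 (standard error 1.29 h), with an adjusted p of 0.150 with limma, 0.00336 with edgeR and 0.00100 with DESeq2. Median-of-ratios scaling of the TPM values brought the adjusted p of this cosine to 0.0363. The amplitude was 0.08 (standard error 0.0695) in control and 0.22 (standard error 0.0663) in PLX5622 mice, and the test of this difference had an unadjusted p of 0.285.

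*Pdgfb* had its highest mean at ZT14 in both diets as well. The control mice at ZT14 had 18.5, 14.2 and 18.4 TPM and the PLX5622 mice 14.4, 11.6, 14.6 and 14.6 TPM. Means at the other times were 11.2 to 13.3 TPM in control and 10.8 to 12.8 TPM in PLX5622 mice. In control mice 2 of the 3 values at ZT14 were above all other control values, while in PLX5622 mice the highest single value, 16.1 TPM, was at ZT18. With the Zeitgeber times as levels the adjusted p was 0.0104 (limma) and 0.00194 (edgeR), and in the limma repeats without 1 library it lay between 9.807e-04 and 0.0411. The cosine had an amplitude of 0.07 (standard error 0.0447) and an adjusted p of 0.533. Of 10 endothelial markers, 4 differed between Zeitgeber times, where 11.0% of all genes did. Their summed mean was highest at ZT14 in PLX5622 mice (313 TPM) and at ZT22 in control mice (295 TPM). The summed mural cell markers were highest at ZT14 in both diets (153 TPM in control and 160 TPM in PLX5622 mice). So were the neuron markers (5507 and 5264 TPM), though 0 of 8 mural and 0 of 11 neuron markers differed between Zeitgeber times. The oligodendrocyte markers were lowest at ZT14 in control mice (4899 TPM) and at ZT22 in PLX5622 mice (5530 TPM). The part of these cell types in the results of *Pdgfb* and *Igf1r* was not tested.

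Both calls were lost without ZT14. Without the 7 libraries of ZT14, the adjusted p was 0.168 for *Igf1r* and 0.496 for *Pdgfb*, 0 of the 10 genes were called, and the count over all genes fell from 1609 to 478. Within control mice alone the adjusted p was 0.490 for *Igf1r* and 0.170 for *Pdgfb*, and within PLX5622 mice alone 0.0789 and 0.607. ZT14 also stood out over the whole transcriptome. In TPM, 5 of the 10 genes (*Igf1*, *Igf1r*, *Pdgfa*, *Pdgfb* and *Fgf2*) had their highest mean at ZT14 in both diets, and so did 28.3% of all 14580 genes. In CPM, the counts scaled to the library total, these were 3 of the 10 genes and 14.8% of 14521 genes. For *Igf1r* and *Pdgfb* ZT14 was the highest in CPM too, at 77.5 and 32.2 CPM in control mice and 74.0 and 27.6 CPM in PLX5622 mice. The immediate early genes, which neuronal activity induces, were also highest at ZT14 in both diets. Their summed level had a mean of 622 TPM at ZT14 in control mice against 227 to 514 TPM at the other times, and 547 TPM against 220 to 296 TPM in PLX5622 mice. Their lowest mean was at ZT6 in both diets (227 TPM in control and 220 TPM in PLX5622 mice). *Igf1r* was also lowest at ZT6 in both diets, at 6.41 and 5.41 TPM, while *Pdgfb* was lowest at ZT18 in control and at ZT22 in PLX5622 mice. In control mice the second highest mean of the immediate early genes, 514 TPM, was at ZT18. There the mean of *Pdgfb* was 11.2 TPM and that of *Igf1r* was its second lowest (6.57 TPM). Of the 12 genes in that list 10 differed between Zeitgeber times, and their part in the result of *Igf1r* and *Pdgfb* was not tested.

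**Figure D4:**
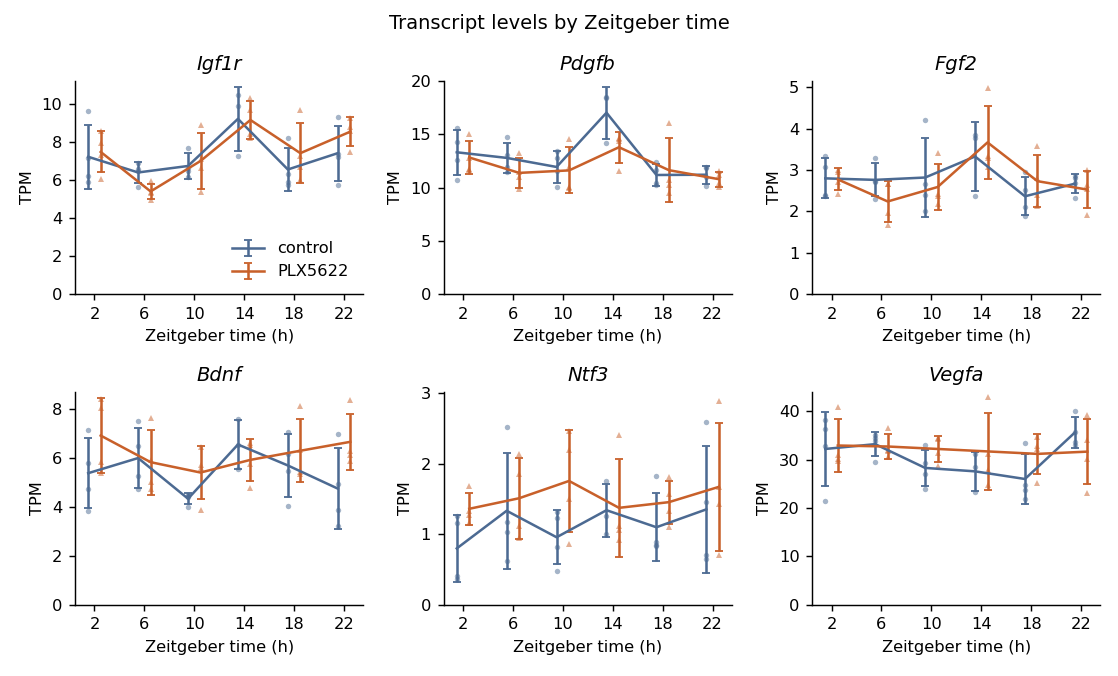
TPM of 6 genes by Zeitgeber time, with control mice as blue circles, PLX5622 mice as orange triangles, and lines through group means with SD bars (n = 4, and n = 3 for control mice at ZT14). *Igf1r*, *Pdgfb* and *Fgf2* have their highest mean at ZT14 in both diets, while the mean of *Vegfa* falls from ZT6 to ZT18 in control mice and stays between 31.2 and 33.0 TPM in PLX5622 mice.

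No other member was called for time. *Vegfa* in control mice had its highest mean at ZT22, 35.6 TPM (33.0 to 40.2 TPM), and its lowest at ZT18, 26.0 TPM (21.9 to 33.5 TPM), with overlapping values. Its cosine had an amplitude of 0.18 (standard error 0.0691) in control mice and 0.04 (standard error 0.0608) in PLX5622 mice, and the difference in rhythm had an unadjusted p of 0.247. JTK_CYCLE, a rank test for a 24-h rhythm with an exact null distribution, gave *Vegfa* a p of 0.0413 in control mice and an adjusted p of 0.699. The first value was multiplied by 6 for the phases tried but not adjusted over genes. *Bdnf*, an activity-dependent gene, was highest at ZT14 in control mice, with 6.52, 5.56 and 7.58 TPM, and highest at ZT2 in PLX5622 mice, with 5.39, 5.83, 8.03 and 8.41 TPM. The lowest mean fell at ZT10 in both diets, at 4.34 TPM (SD 0.223) and 5.41 TPM (SD 1.09). With Zeitgeber times as levels the adjusted p of *Bdnf* was 0.458. *Fgf2* had its highest means at ZT14, 3.33 TPM (SD 0.827) in control and 3.67 TPM (SD 0.887) in PLX5622 mice, with an unadjusted p of 0.0218 and an adjusted p of 0.113. *Ntrk2* had an unadjusted p of 0.0451 and an adjusted p of 0.170, with its highest mean at ZT22 in control mice (182 TPM) and at ZT14 in PLX5622 mice (190 TPM). *Ntf3*, the gene with an E-box in a promoter window, had adjusted p-values of 0.863 for Zeitgeber times and 0.942 for the cosine.

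**Figure D5:**
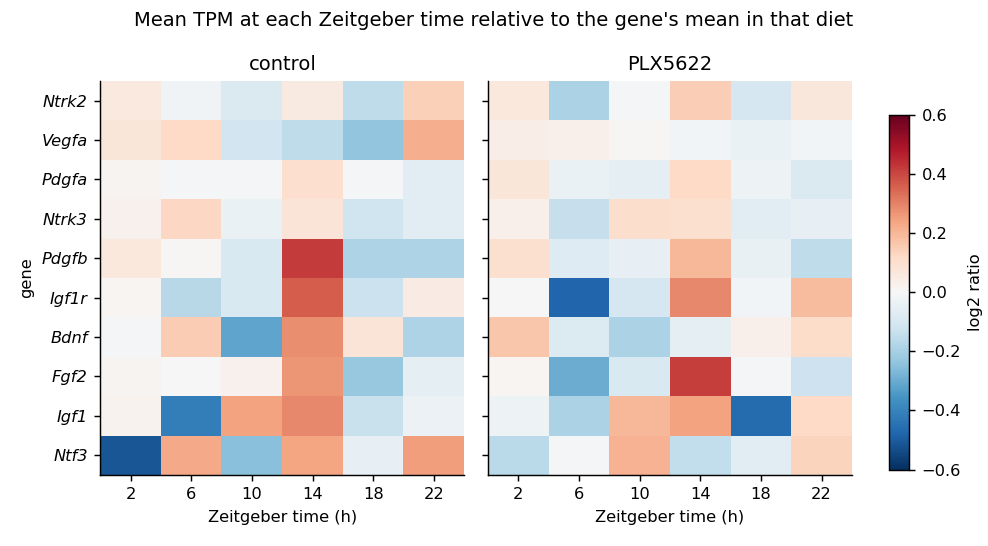
Log2 ratio of the mean TPM at each Zeitgeber time to the mean of the same gene in the same diet, for control mice (left) and PLX5622 mice (right), with red above and blue below 0. The column of ZT14 is red for *Igf1r*, *Pdgfb*, *Fgf2* and *Igf1* in both diets, and with smaller ratios also for *Pdgfa*, *Ntrk3* and *Ntrk2*. *Ntf3* at ZT2 in control mice has the lowest ratio at -0.51.

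Within single diets, JTK_CYCLE called 0 of the 10 genes in control mice, where it called 12 genes or 0.0823% of all genes, and 0 of the 10 in PLX5622 mice, where it called 72 genes or 0.494%. With an unadjusted p under 0.05 from the exact null distribution of JTK_CYCLE there was 1 gene in each diet, *Vegfa* in control mice and *Igf1r* in PLX5622 mice (p = 0.0442, adjusted p = 0.547), where 6.43% of all genes in control mice and 8.22% in PLX5622 mice were under this value. Cosine fits with limma within each diet called 0 of the 10 as well.

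The third question was whether loss of microglia changes the rhythm of these transcripts. The interaction of diet with the cosine and sine of time called 0 of the 10 genes and 0.00% of all genes, and 0 of the 10 had an unadjusted p under 0.05. The smallest unadjusted p-values were 0.247 for *Vegfa*, 0.262 for *Fgf2* and 0.285 for *Igf1r*, with 4.59% of all genes under 0.05. edgeR and DESeq2 on the counts called 0 of the 10 as well. The fitted peak of *Igf1r* was at ZT 15.8 (standard error 3.21 h) in control and ZT 18.02 (standard error 1.18 h) in PLX5622 mice, closer together than the error of the first.

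Partners of the 10 genes were also compared between Zeitgeber times. With the times as levels, 11.0% of all genes tested differed, and in the IGF list 3 of 13 genes did. *Irs2* and *Irs1*, adaptor proteins of the IGF-1 and insulin receptors, were highest at ZT14 like *Igf1r*, with means over both diets of 14.5 TPM against 8.71 TPM at ZT6 for *Irs2* (adjusted p = 0.00137) and 2.35 against 1.39 TPM for *Irs1* (adjusted p = 0.00384). *Igf2*, a ligand made by meninges and choroid plexus, was highest at ZT14 with 54.7 TPM (adjusted p = 0.0275), was called in 43 of 47 repeats and in 3 of 8 alternatives, and missed the threshold in the edgeR test (adjusted p = 0.0514). In the VEGF list 2 of 8 differed, the VEGF receptors *Kdr* (adjusted p = 0.00876) and *Flt1* (adjusted p = 0.0240), with means of 4.87 and 20.2 TPM at ZT2 and 3.09 and 15.0 TPM at ZT10. In the FGF list 4 of 18 differed. *Spry4*, *Spry2* and *Dusp6*, feedback inhibitors that growth factor signalling induces, were highest at ZT14, with 4.78 TPM against a lowest mean of 2.45 TPM for *Spry4* (adjusted p = 3.735e-06), 35.4 against 27.0 TPM for *Spry2* and 32.0 against 17.0 TPM for *Dusp6*. *Etv5*, a transcription factor of the same pathway, was highest at ZT2 with 40.7 TPM. In the list of GDNF and CNTF families 2 of 14 differed, *Manf*, a stress-induced secreted factor, with 115 TPM at ZT18 against 80.1 TPM at ZT10 (adjusted p = 5.195e-04), and *Nrtn* (adjusted p = 0.0410, and 0.0992 with edgeR). Of 15 other neurotrophin genes 1 differed, *Plat*, whose protease product activates plasmin, which cleaves proBDNF, with 16.2 TPM at ZT22 against 11.95 TPM at ZT18 (adjusted p = 0.00361), and of 5 other PDGF genes 0 did. Without the ZT14 libraries, *Irs1*, *Irs2*, *Spry2*, *Spry4*, *Dusp6*, *Igf2* and *Flt1* were no longer called, with adjusted p-values of 0.0503 to 0.516.

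The genes most like *Igf1r* over the 12 group means of log2(TPM + 1), among 10543 genes averaging 5 TPM or more, were *Fam234b* (Pearson r = 0.982), *Wdfy3* (0.970), *Atg2b* (0.967), *Phlpp2* (0.966) and *Trio* (0.965), and 929 genes had an r above 0.8. Those most like *Ntf3* were *Bnip3* (0.943), *Nkain2* (0.926), *Crls1* (0.923), *Psmb5* (0.908) and *Adgrl4* (0.905), with 61 genes above 0.8. Among the 10 genes, *Fgf2* was the most like *Igf1r* (0.779), followed by *Ntrk2* (0.728), and *Bdnf* the most like *Ntf3* (0.506). The 12 points share libraries and depth across genes, and the values are descriptions.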

How the data were processed

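RNA of 47 cortices was sequenced by the authors as paired-end libraries. Groups were taken from the sample titles. Per the paper's methods, the authors mapped reads to GRCm38.p6 with STAR and computed TPM with Salmon and a Gencode annotation. The deposited TPM table was used as given, and the linear correction for sequencing metrics that the paper describes was not applied here. The second table deposited by the authors is named for FPKM but holds whole-number counts per gene without normalization, and was used as counts. The submitters' processing notes name STAR, featureCounts, edgeR, limma and mm10, without giving the step each served, and a strand setting is not given in the sources used here. Gene positions came from GENCODE M21, which holds 99.68% of the identifiers of the TPM table and 99.77% of those of the count table.

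Library totals ranged from 16597987 to 27626161 counts (median 18314954 in control and 21476967.5 in PLX5622 mice), and mitochondrial transcripts took 6.46% to 10.0% of them. Over 69 pairs of libraries of 1 group, the chi-square per degree of freedom was at least 4.30, so none was counted as a repeat of another. P-values measure the spread between mice, which were taken as independent. The diet was given in chow and the cage of each mouse is not given, so the spread between cages was not measured. An effect of cage cannot be told apart from one of diet or Zeitgeber time.

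The comparison of diets, the cosine and its interaction with diet were tested with limma 3.58.1 on log2(TPM + 1) in R 4.3.3, for genes averaging 1 TPM or more, with the terms of the paper's formulas. A fold change on this scale understates that of genes of low level. JTK_CYCLE was written for this purpose, with 6 phases, a 24-h period and an exact null distribution. Its smallest p over the phases was multiplied by 6 before the adjustment over genes. Benjamini-Hochberg adjustment ran over all genes tested, and 0.05 was the threshold. edgeR 4.0.16 and DESeq2 1.42.0 on the counts were alternatives. All tests were two-sided, and the scripts were tested on simulated data. Zeitgeber time as a factor was added as a result of its own after the data were seen. The replicate numbers were not used as pairs.

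The 10 genes, the gene lists and the rule for named genes were chosen with earlier results of these data known. Named were the 10 genes, at most 4 called genes per list and comparison, genes overlapping a member, and the 5 genes most like the member with the smallest p for diet and for rhythm. The lists were other neurotrophin, IGF, VEGF, PDGF and FGF genes, the GDNF and CNTF families, immediate early genes, core clock genes, and markers of 9 cell types. All 16 core clock genes were tested, 0 were called for diet and 13 for a 24-h rhythm. The alternatives were another pseudocount or filter, scaling, covariates, a replicate block, eBayes with a trend, other tests, and each library left out in turn. Each library's sequencing platform and RNA integrity were not used here.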

Additional observations from a re-analysis of the deposited data

Results flagged for a closer look

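Values of single mice far from the other 3 of their group were looked for in 110 groups (10 genes in the 11 groups of 4 mice), with Dixon's 95% limit for the gap divided by the range. Of these, 8 were past the limit, where chance alone gives about 5.5, or 1 in 20. *Ntf3* had 2, both high. PLX5622 ZT14 mouse 4 had 2.40 TPM against 0.924 to 1.11 TPM in the other 3 mice, and control ZT18 mouse 4 had 1.82 TPM against 0.836 to 0.885 TPM. The first of these mice was also high for *Fgf2*, at 4.99 TPM against 3.07 to 3.33 TPM. *Ntrk3* in control ZT18 mouse 2 was 22.3 TPM against 13.8 to 14.99 TPM, and *Vegfa* in PLX5622 ZT2 mouse 2 was 41.0 TPM against 29.7 to 30.9 TPM. The low values were those of *Bdnf* in control ZT10 mouse 1 (4.00 TPM against 4.41 to 4.49 TPM), *Pdgfa* in PLX5622 ZT18 mouse 2 (28.7 TPM against 31.5 to 31.8 TPM) and *Pdgfb* in PLX5622 ZT14 mouse 2 (11.6 TPM against 14.4 to 14.6 TPM). In limma with the Zeitgeber times as levels, *Fgf2* was called in 1 of 47 repeats without 1 library, with adjusted p-values from 0.0350 to 0.325, the highest without PLX5622 ZT14 mouse 4.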

How the results depend on the processing

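For the diet, 0 of the 10 genes were called in limma, and 1 with edgeR, with DESeq2 (*Pdgfb* in both) and with 3 residual principal components (*Bdnf*). For the cosine over both diets 0 were called, and 1 (*Igf1r*) with median-of-ratios scaling, edgeR, DESeq2 or 3 residual principal components, and 2 with Zeitgeber time as a factor. With upper-quartile scaling the adjusted p of *Igf1r* was 0.0501. The difference between Zeitgeber times, called in 2 genes, was called in 5 with 3 residual principal components, and in 0 without the ZT14 libraries, in control mice alone and in PLX5622 mice alone, tests on fewer samples. The calls for cycling and for a difference in rhythm remained at 0 in every alternative. The 3 residual components were taken from the same values after diet and time had been fitted. By construction they take up the remaining spread, so the added calls with them are no separate support. The cause of the differences between tables was not tested.

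Without 1 library, limma called 0 of the 10 for diet, cosine and difference in rhythm each time, JTK_CYCLE called 0 in either diet, and the Zeitgeber times gave 2 to 3. In edgeR the repeats gave 0 to 2 for diet and 1 to 2 for the cosine. Over all genes, leaving out 1 library gave 1121 (PLX5622 ZT14 mouse 3) to 2222 (PLX5622 ZT18 mouse 4) genes that differed between Zeitgeber times instead of 1609. Over the alternatives, the calls for diet ranged from 298 (mean of at least 5 TPM) to 2428 (3 residual principal components) instead of 503, those for the cosine from 585 (no filter) to 4068 (3 components) instead of 767, and those between Zeitgeber times from 478 (without ZT14) to 6451 (3 components). A difference in rhythm was called in 237 genes with 3 components and in 0 otherwise.

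The log2 fold change for diet changed sign in 4 genes. *Igf1* was 0.10 with edgeR and with DESeq2, *Vegfa* -0.00511 and -0.00676, and *Fgf2* 0.0110 and 0.00867. *Pdgfa* was -0.00529 with median-of-ratios and -0.00674 with upper-quartile scaling, -0.00459 with edgeR, -0.00634 with DESeq2 and -0.0239 with the library total as a covariate. In limma without 1 library, *Igf1* ranged from -0.0468 to 0.0138 and *Fgf2* from -0.0397 to 0.00832, while *Vegfa* and *Pdgfa* remained above 0. The scalings moved the median of all genes by 0.0230 and 0.0244.

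Deviations of same-numbered mice of the diets correlated at -0.0928 to 0.198 over 23 pairs, above 0.1 in 7, so the numbers were not taken as pairs. With the replicate block, 0 members were called for diet, 0 for the cosine, 0 for the difference in rhythm and 2 between Zeitgeber times, and *Ntf3* had a log2 fold change of 0.25.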
